A study of Homo sapiens with 6 samples.

Results

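The genes described here are 10 secreted proteins of the TGF-beta family and its extracellular traps, namely the TGF-beta ligands TGFB1, TGFB2 and TGFB3, the activin subunits INHBA and INHBB, the bone morphogenetic proteins BMP2, BMP4 and BMP7, and the traps GREM1 and FST. They were followed in VCaP cells, an established line from a human prostate cancer metastasis, after knockdown of the arginine methyltransferase PRMT5. The genes were chosen by their family, with their differences between these hairpins already known from the same arrays. Members were all probe sets (groups of short probes for 1 transcript) whose platform annotation gives exactly 1 of these symbols. They came to 25 of the 54675 probe sets, or 10 of 19775 genes. The series has 6 arrays in 3 groups of 2. VCaP cells carried a non-targeting hairpin (NTC shRNA), PRMT5 shRNA 1 or PRMT5 shRNA 2, and the cells of all 6 samples received doxycycline at 100 ng/ml for 3 days, so the control cells had the drug as well. Every comparison thus sets one hairpin against another, with no sample free of the drug. The labels do not say whether the 2 arrays of a group came from separate cultures, so the errors measure only the spread between these arrays, which may be technical.

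Ligands of the TGF-beta family are made as precursors, are cut by furin-like proteases, and act as dimers on pairs of type I and type II receptor kinases. TGF-beta and activin receptors act mainly through SMAD2 and SMAD3, and BMP receptors through SMAD1, SMAD5 and SMAD9. SMAD6 and SMAD7 are inhibitory SMADs, and traps such as noggin, gremlin 1 (GREM1) and follistatin (FST) bind ligands outside the cell. In the prostate, TGF-beta is known for restraining epithelial growth, and prostate cancers often respond to it poorly.

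The targeted gene was lower on every array with a PRMT5 hairpin. PRMT5 read 810 and 881 with NTC, 136 and 134 with PRMT5 shRNA 1, and 291 and 321 with PRMT5 shRNA 2, so 15.9% and 36.2% of the control signal remained. All 9 markers of prostate luminal epithelium on the array passed the filter on dim probe sets (described below). All 5 endothelial and all 4 blood and immune markers stayed under the median of every array. Of 9 fibroblast and smooth muscle markers, 2 (COL1A1 and MYH11) passed the filter and 6 never reached an array's median. Precision is limited by having 2 arrays in each group, whose typical spread was small (a median SD of 0.081 in log2 units over tested genes). These are bulk samples, in which fewer cells making a transcript and less transcript per cell cannot be told apart.

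Many of the members were dim. An intensity was taken as measurable where it reached the median of its array, which lay between 14.8 and 16.4, in at least 2 of the 6 arrays. Of the 25 probe sets 12 passed, and 12 never reached the median on any array. The passing probe sets covered 6 genes, TGFB2, INHBA, INHBB, BMP2, BMP7 and GREM1. TGFB1, TGFB3, BMP4 and FST had no passing probe set and have only a bound. Differences below are on the log2(intensity + 16) scale and their errors are standard errors (SE) from limma, fitted over 12413 genes. A gene was called at a Benjamini-Hochberg adjusted p under 0.05. The members were listed with earlier results of these same arrays known, so their differences and calls are a description and no p-value is attached to them.

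**Figure D1:**
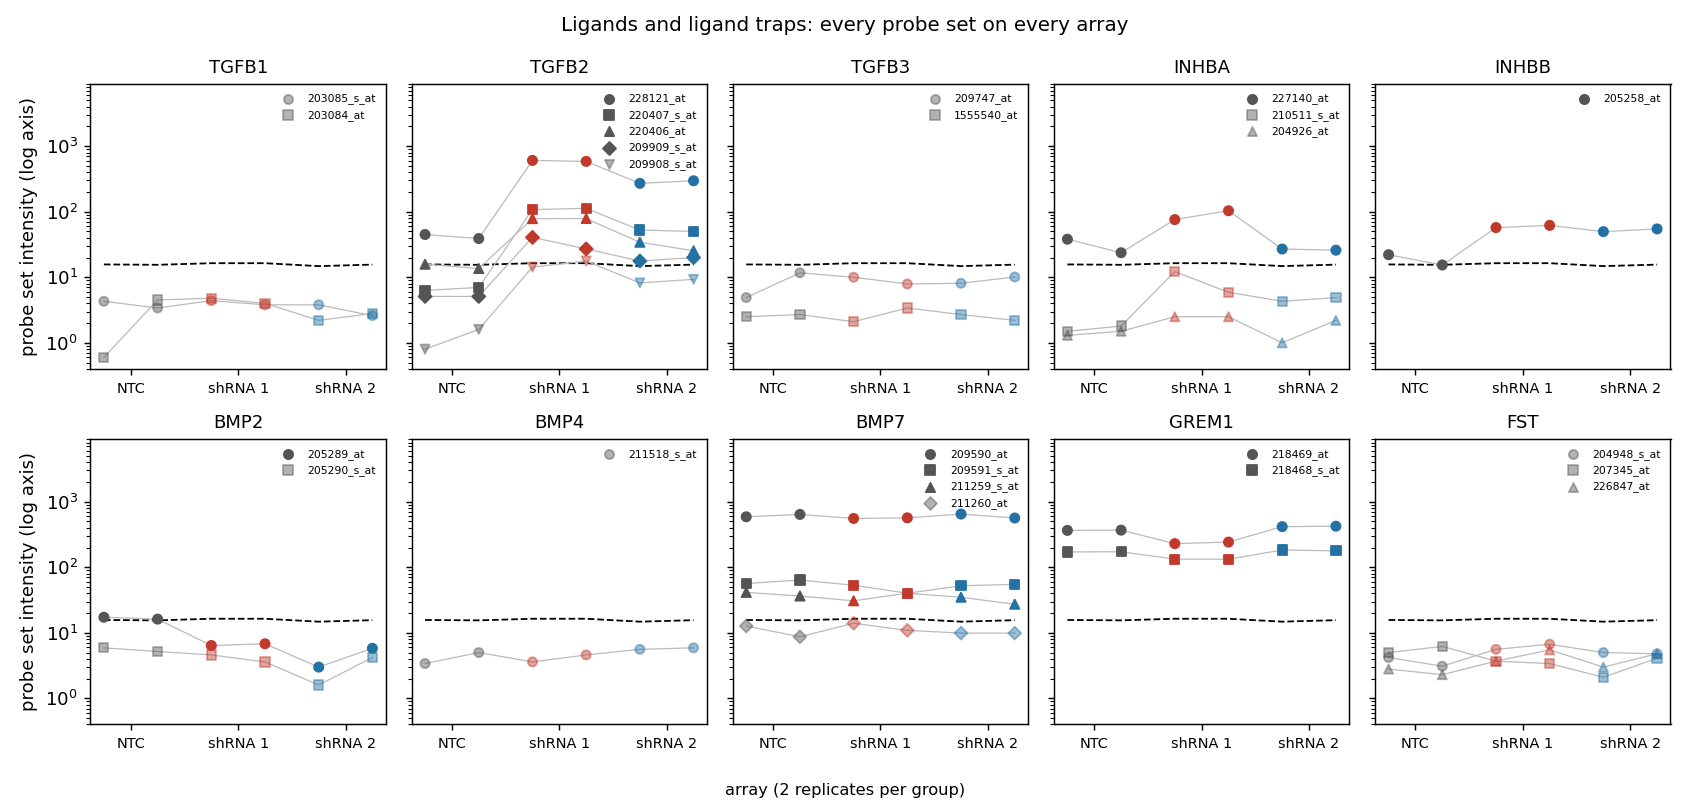
Intensity of every probe set of the 10 genes on each of the 6 arrays, on a log axis, with a panel per gene and a symbol per probe set (grey NTC, red PRMT5 shRNA 1, blue PRMT5 shRNA 2). Pale symbols are probe sets that did not pass the filter, grey lines only join the values of a probe set, and the dashed line is the array median of 14.8 to 16.4. All 5 TGFB2 probe sets lie higher on the 4 knockdown arrays, while TGFB1, TGFB3, BMP4 and FST lie under the median throughout.

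Of the 6 tested members, 3 were called higher (TGFB2, INHBB and INHBA) and 2 lower (BMP2 and GREM1) for the mean of both PRMT5 hairpins against NTC, beside 32.4% of all tested genes called in that comparison (15.4% higher, 17.0% lower). With PRMT5 shRNA 1 the same 5 were called, beside 39.3% of all genes (16.2% higher, 23.1% lower). With PRMT5 shRNA 2 alone TGFB2 and INHBB were called higher and BMP2 lower, beside 21.4% of all genes (13.1% higher, 8.39% lower). Between the hairpins, GREM1 was called higher with PRMT5 shRNA 2 and TGFB2 and INHBA lower, beside 25.7% of all genes (18.3% higher, 7.38% lower). Nothing is read from these counts, since the members were chosen from the same contrasts. The median averaged difference of the 6 tested members was 0.23, against -0.01 for all tested genes. Both hairpins were set against the same 2 control arrays, so their differences from NTC are not independent of each other. Without NTC shRNA replicate 1 the averaged comparison called 3 members, and without NTC shRNA replicate 2 it called 2, in both cases with BMP2 no longer tested.

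The start regions of TGFB2 and INHBB are shown because these were the members called higher with both hairpins. Each window is the 250 bases before the gene's start in RefSeq on GRCh38.p14, plus strand, at chr1:218345086-218345335 for TGFB2 and chr2:120345886-120346135 for INHBB, which lie upstream of the transcribed part. In the TGFB2 window the capitals mark a TATAAA box, a CACGTG E-box and the complement of the cAMP response element core TGACG, and in the INHBB window they mark GGGCGG boxes on either strand.
TGFB2: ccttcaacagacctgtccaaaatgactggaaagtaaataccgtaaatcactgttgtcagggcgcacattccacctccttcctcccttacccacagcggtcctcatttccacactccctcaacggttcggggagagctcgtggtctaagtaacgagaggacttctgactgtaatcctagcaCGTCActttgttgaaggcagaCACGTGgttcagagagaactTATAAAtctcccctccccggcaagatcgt
INHBB: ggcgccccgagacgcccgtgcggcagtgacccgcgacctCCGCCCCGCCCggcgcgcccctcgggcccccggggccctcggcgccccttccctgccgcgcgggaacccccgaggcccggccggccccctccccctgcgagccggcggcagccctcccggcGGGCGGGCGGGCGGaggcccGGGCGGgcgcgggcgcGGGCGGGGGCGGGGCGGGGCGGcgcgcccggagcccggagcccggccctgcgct

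The TGFB2 window held 1 match to TATAAA, beginning 29 bases before the start, 1 to CACGTG at 49 bases, and 1 to TGACG, on the minus strand, at 70 bases. Of all 35116 windows of 250 bases in the RefSeq table, searched on both strands, 10.7% held TATAAA, 6.34% held CACGTG and 21.2% held TGACG. The window also held 2 matches to CAGAC, a box bound by SMAD proteins, 1 of which overlaps the E-box, and 38% of all windows held this motif. The INHBB window was of another kind, with 89.6% G and C (50.4% in that of TGFB2, and a median of 58.0% in all windows) and 10 matches to GGGCGG, some overlapping, a motif found in 42.6% of windows. INHBB had 0 matches to the other 4 motifs. These 5 motifs were chosen with the sequences in view, and a match is a description of letters, not of a bound site. RefSeq entries matched 8 of the 10 members.

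TGFB2 showed the largest difference among the members. This ligand is made by many epithelial and mesenchymal cells and needs the coreceptor TGFBR3 for strong binding to its type II receptor. Its brightest probe set read 44.9 and 39.0 with NTC, 607 and 586 with PRMT5 shRNA 1, and 271 and 297 with PRMT5 shRNA 2. The groups did not overlap, and the order was NTC, then PRMT5 shRNA 2, then PRMT5 shRNA 1, with each step far larger than the spread of 2 arrays. All 4 knockdown arrays lay above both control arrays in 18.7% of tested genes, and how many share the full order was not counted. Mean intensity was 14.2 times the control with PRMT5 shRNA 1 and 6.77 times with PRMT5 shRNA 2. On the log2 scale the difference from NTC was 3.40 ± 0.09 (SE) with PRMT5 shRNA 1 and 2.37 ± 0.09 with PRMT5 shRNA 2. Set against each other, the second hairpin lay below the first, with a log2 difference of -1.03 ± 0.09 (SE).

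The other TGFB2 probe sets had the same order. Probe set 220407_s_at read 6.3 and 7.0 with NTC, 108 and 113 with PRMT5 shRNA 1, and 52.6 and 50.0 with PRMT5 shRNA 2. Probe set 220406_at read 15.8 and 13.6, then 78.4 and 78.7, then 34.2 and 25.4. Probe set 209909_s_at read 5.1 on both control arrays, then 40.6 and 27.1, then 17.7 and 20.0. These 3 were near or under the array median in control cells, and 220407_s_at and 209909_s_at passed the filter only through the knockdown arrays. The dimmest, 209908_s_at, did not pass and read 0.8 and 1.6, then 14.3 and 17.7, then 8.2 and 9.3. So all 5 probe sets had every knockdown array above both control arrays, a pattern shown by 12.0% of all non-control probe sets. With PRMT5 shRNA 2 the mean was between 0.379 and 0.557 times that with PRMT5 shRNA 1 on the 5 probe sets. The log2 differences of the 4 passing probe sets, averaged over the hairpins, ran from 0.98 ± 0.12 (SE) to 2.89 ± 0.08, so the size of the TGFB2 difference depends on the probe set. Direction and order were the same on all of them, but for 220407_s_at and 209909_s_at a higher value was fixed by the way they passed. With the mean over passing probe sets, these 2 included, the averaged value was 1.75 in place of 2.89.

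The other TGF-beta ligands had no level above the filter. TGFB1, the main TGF-beta of blood platelets and stroma, lay between 0.6 and 4.8 on its 2 probe sets over all 6 arrays. TGFB3, important in palate and wound repair, lay between 2.1 and 11.7 on its 2 probe sets. On neither gene did a probe set separate the knockdown arrays from the control arrays. Of the TGF-beta ligands on this array, TGFB2 was thus the one with intensities above the filter, and in control cells that rested mainly on probe set 228121_at, with 220406_at near the median.

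The genes with the pattern most like TGFB2 were found as the smallest Euclidean distance over the 6 arrays, after subtraction of each gene's own NTC mean on the log2 scale. The nearest was SPRY4-IT1 at a distance of 0.37, a transcript that overlaps SPRY4, and the probes may not separate the pair. SPRY4, which damps signals from receptor tyrosine kinases, followed at 0.58. SLC15A2, a peptide transporter (0.91), RELN, a secreted matrix protein (1.05), and TGM4, a prostate transglutaminase (1.16), came next. SPRY4-IT1 differed from NTC by 3.39 ± 0.13 (SE) and 2.39 ± 0.13 with the hairpins, close to the 3.40 and 2.37 of TGFB2, whereas TGM4 was nearly level between hairpins at 2.72 ± 0.11 and 2.83 ± 0.11. This is a description over 6 arrays that share 2 controls, and carries no p-value.

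**Figure D2:**
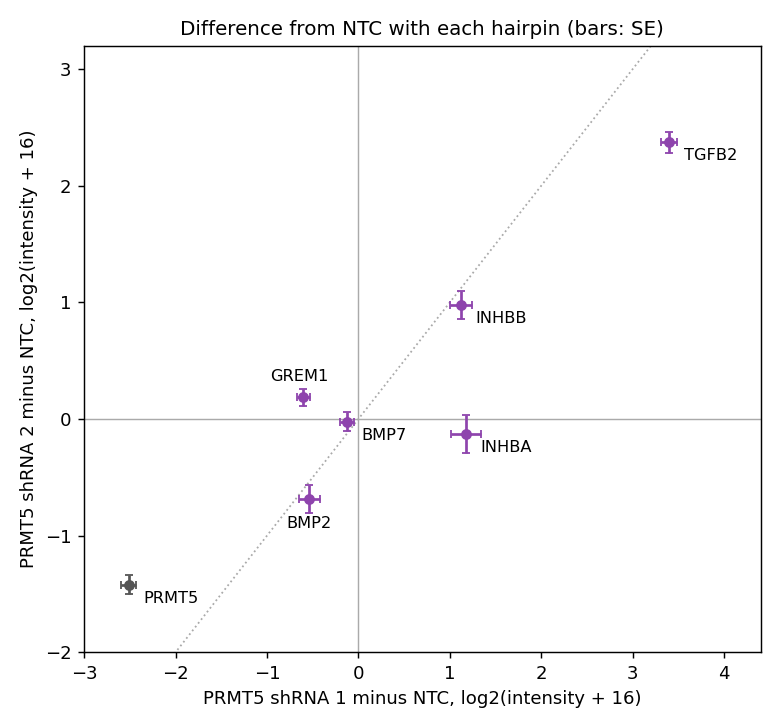
Log2 difference from NTC with PRMT5 shRNA 1 (horizontal axis) and PRMT5 shRNA 2 (vertical axis) for the 6 tested members (purple) and PRMT5 (grey), with bars of 1 SE; the dotted line marks equal differences, and both axes share the same 2 control arrays. TGFB2 lies at 3.40 and 2.37, INHBB near the dotted line at 1.13 and 0.98, and INHBA (1.18 and -0.13) and GREM1 (-0.60 and 0.19) away from it.

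Activin subunits differed in how they went with the hairpins. INHBB encodes the beta B subunit of activin B and inhibin B. Its only probe set read 22.1 and 15.4 with NTC, 57.3 and 61.9 with PRMT5 shRNA 1, and 49.7 and 54.7 with PRMT5 shRNA 2. All 4 knockdown arrays lay above both control arrays, a pattern seen for 18.7% of tested genes, and 1 control array lay just under its array's median. The difference from NTC was 1.13 ± 0.12 (SE) with PRMT5 shRNA 1 and 0.98 ± 0.12 with PRMT5 shRNA 2. Between themselves the hairpins differed by -0.15 ± 0.12 (SE), which was not called, so their order was not settled. Because control values were so low, the averaged INHBB difference of 1.05 became 1.54 with a pseudocount of 1 and 0.54 with one of 64.

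INHBA encodes the beta A subunit of activin A. Its passing probe set read 38.1 and 23.7 with NTC, 75.9 and 104 with PRMT5 shRNA 1, and 27.0 and 25.9 with PRMT5 shRNA 2. Both arrays with PRMT5 shRNA 1 were above all others, and both with PRMT5 shRNA 2 fell between the control arrays. The difference from NTC was 1.18 ± 0.16 (SE) with PRMT5 shRNA 1 and -0.13 ± 0.16 with PRMT5 shRNA 2, and the hairpins differed by -1.30 ± 0.16. The averaged call (0.53 ± 0.14, SE) therefore came from PRMT5 shRNA 1, and without NTC shRNA replicate 2 the averaged difference was 0.30 and was not called. Replicates of INHBA spread more than those of a typical gene, with an SD of 0.24 on the log2 scale. The other INHBA probe sets stayed under the median, at 1.5 to 12.2 for 210511_s_at and 1.0 to 2.5 for 204926_at. On 210511_s_at all 4 knockdown arrays lay above the controls, as for 12.0% of non-control probe sets. They read 12.2 and 5.9 with PRMT5 shRNA 1 and 4.3 and 4.9 with PRMT5 shRNA 2, against 1.5 and 1.8 with NTC. At these low levels the probe sets thus did not share the placing of PRMT5 shRNA 2.

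None of the bone morphogenetic proteins tested (BMP2 and BMP7) was called higher. BMP2, a ligand known for bone and cartilage formation, read 17.3 and 16.2 with NTC, 6.4 and 6.8 with PRMT5 shRNA 1, and 3.0 and 5.8 with PRMT5 shRNA 2. This probe set passed the filter only through its control arrays, which exceeded their medians narrowly, so a lower value with knockdown was fixed by the way it passed. All 4 knockdown arrays were below both controls, as for 20.5% of tested genes. The log2 difference was -0.54 ± 0.12 (SE) with PRMT5 shRNA 1 and -0.69 ± 0.12 with PRMT5 shRNA 2, and the hairpins differed by -0.15 ± 0.12, not called. The averaged value moved from -0.61 to -1.50 with a pseudocount of 1 and to -0.22 with one of 64. The other BMP2 probe set, 205290_s_at, never reached a median, and read 5.9 and 5.2, then 4.6 and 3.6, then 1.6 and 4.2, with all 4 knockdown arrays below the controls, as for 14.4% of non-control probe sets. BMP4, important in mesoderm and prostate development, lay between 3.4 and 5.9 on its single probe set in all 6 arrays.

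BMP7, a ligand of kidney and epithelium, had high intensities in every group. The brightest probe set read 589 and 640 with NTC, 556 and 567 with PRMT5 shRNA 1, and 648 and 564 with PRMT5 shRNA 2, and the groups overlapped. Its difference from NTC was -0.13 ± 0.08 (SE) with PRMT5 shRNA 1 and -0.02 ± 0.08 with PRMT5 shRNA 2, and neither was called. Probe set 209591_s_at ran from 40.2 to 63.9 and 211259_s_at from 27.3 to 41.4 over all arrays, with averaged differences of -0.21 ± 0.11 (SE) and -0.16 ± 0.11 that were not called (28.2% of all probe sets tested singly were), and 211260_at stayed under the median at 8.7 to 14.0. On 209591_s_at the 4 knockdown arrays (40.2 to 54.7) lay below both control arrays (56.5 and 63.9), as for 14.4% of non-control probe sets. No order of the groups could be told from the brightest probe set beyond the spread of 2 arrays.

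GREM1, gremlin 1, is a trap that binds BMP2, BMP4 and BMP7, and it stood in opposite places with the hairpins. Its brighter probe set read 365 and 369 with NTC, 229 and 243 with PRMT5 shRNA 1, and 417 and 424 with PRMT5 shRNA 2. The groups lay in the order PRMT5 shRNA 1, NTC, PRMT5 shRNA 2, without overlap. How many of all probe sets separate in this way was not counted. The second probe set, 218468_s_at, read 172 on both control arrays, 133 on both arrays with PRMT5 shRNA 1, and 184 and 178 with PRMT5 shRNA 2, in the same order. For the brighter one the difference from NTC was -0.60 ± 0.07 (SE) with PRMT5 shRNA 1, called, and 0.19 ± 0.07 with PRMT5 shRNA 2, not called. The hairpins differed by 0.79 ± 0.07 (SE), and by 0.40 ± 0.08 on the second probe set, both called. Of all probe sets tested singly, 36.4% were called with PRMT5 shRNA 1, 18.0% with PRMT5 shRNA 2 and 25.8% between the hairpins. The averaged difference of -0.21 ± 0.06 describes neither hairpin, and it lost its call without either control array and without PRMT5 shRNA 1 replicate 1. Other values had the same order of groups. For the ACTB control probes, the 3' signal divided by the 5' signal, a measure of RNA integrity and amplification, averaged 4.73 ± 0.209 (SD of 2 arrays) in control cells. It was lower with PRMT5 shRNA 1, at 3.69 ± 0.279, and higher with PRMT5 shRNA 2, at 5.36 ± 0.511. The same ratio for GAPDH did not have that order, at 1.29 ± 0.0531 in control cells, and lower for both hairpins, at 1.22 ± 0.0177 (PRMT5 shRNA 1) and 1.22 ± 0.00730 (PRMT5 shRNA 2). The summed intensity of the 9 fibroblast and smooth muscle markers was 93.0 to 94.2 with NTC, 84.9 to 88.8 with PRMT5 shRNA 1 and 106 to 121 with PRMT5 shRNA 2, with COL1A2, COL3A1, DCN, DES, PDGFRB and THY1 under the median on every array. Of the basal epithelial markers, KRT5 never reached a median, while KRT14 passed the filter and read 37.2 and 45.8 in control cells, 26.5 and 26.7 on the arrays of PRMT5 shRNA 1, and 42.3 and 52.5 on those of PRMT5 shRNA 2. The summed intensity of both was 38.3 to 51.7, 27.9 to 30.7 and 43.9 to 54.4, lowest with PRMT5 shRNA 1 as for GREM1, with the control and PRMT5 shRNA 2 ranges overlapping. The part of any of these in the GREM1 values was not tested.

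FST, follistatin, which traps activins, was at or near the lowest intensities. Its 3 probe sets lay between 2.1 and 6.7 on all 6 arrays. On 2 of them the knockdown arrays were above the controls (as for 12.0% of non-control probe sets) and on the third below (14.4%). At this level no direction could be given. With the filter removed, FST, TGFB1, TGFB3 and BMP4 were tested on their brightest probe sets and none was called in the averaged comparison or with either hairpin.

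**Figure D3:**
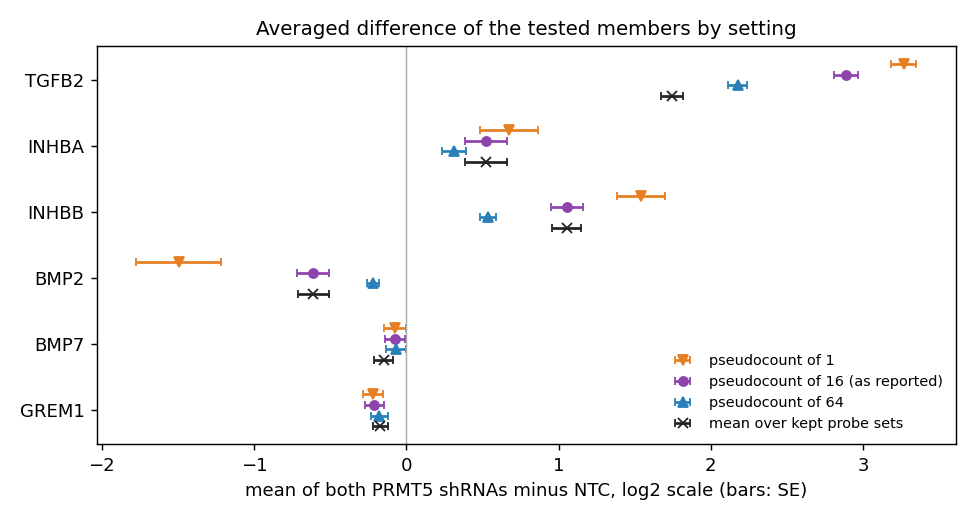
Averaged log2 difference from NTC of the 6 tested members (bars, 1 SE) with pseudocounts of 1, 16 and 64, and with the mean over passing probe sets in place of the brightest. Direction is the same in all 4 settings, but the size of BMP2 runs from -1.50 to -0.22 and that of INHBB from 0.54 to 1.54.

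The rest of the pathway was read from 7 lists of other ligands, traps, activators, receptors, SMADs and response genes, with 82 different genes tested. Of the listed genes, 11 stand on more than 1 list. These lists too were drawn up with results of the same arrays known, so their counts are a description and no p-value is given. For the mean of both hairpins, 38 of the 82 were called higher, 9 lower and 35 were not called, beside 15.4% of all tested genes called higher and 17.0% called lower. Of the 38, 5 (TGFBR2, ACVRL1, LDLRAD4, DLX3 and DLX5) passed the filter only through knockdown arrays, which favours a higher value there. For ACVRL1 these were the arrays of PRMT5 shRNA 2 alone. This leaves 33 others. Of 21 other ligands on the array 4 could be tested, and 1 rose and 1 fell. Their median was -0.007, beside -0.0148 for all tested genes. GDF15, a ligand induced by stress, rose by 0.51 ± 0.09 (SE), and GDF11, a relative of myostatin, fell by 1.05 ± 0.06. GDF11 read 571 and 602 with NTC, 245 and 256 with PRMT5 shRNA 1, and 306 and 293 with PRMT5 shRNA 2.

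Of 7 other extracellular antagonists tested (17 on the array), 5 rose, 1 fell and 1 was not called, with a list median of 0.29. The BMP traps NBL1 (0.65 ± 0.09, SE) and SOSTDC1 (0.47 ± 0.08) rose, as did KCP (0.33 ± 0.08), which was no longer called when NTC shRNA replicate 1 was left out or when a gene's probe sets were averaged (0.12). CRIM1, a membrane protein that binds BMPs, fell by 0.88 ± 0.12. Noggin (NOG) lay between 2.7 and 6.3, under the filter. Among 12 tested genes of latency, processing and activation (20 on the array), 4 rose, 1 fell and 7 were not called. Their median was 0.025, beside -0.0148 for all tested genes. TLL2, a protease of the BMP1 family, rose by 1.24 ± 0.09. FURIN, which cuts TGF-beta family precursors, rose by 0.86 ± 0.20, although the 2 arrays with PRMT5 shRNA 2 stood far apart at 256 and 120 against 95.7 and 94.7 with NTC. LTBP1, which stores latent TGF-beta in the matrix, rose by 0.30 ± 0.05 and was called with PRMT5 shRNA 1 and not with PRMT5 shRNA 2. The plasminogen activator PLAT fell by 1.07 ± 0.11, and the integrin subunits ITGAV (0.10 ± 0.07) and ITGB8 (-0.08 ± 0.11) were not called.

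Of 14 receptors and coreceptors tested (18 on the array), 7 rose, 1 fell and 6 were not called. Their median averaged difference was 0.078, beside -0.0148 for all tested genes. For PRMT5 shRNA 1 alone 6 rose and 4 fell, and for PRMT5 shRNA 2 alone 4 rose and 1 fell, beside 16.2% higher and 23.1% lower of all genes with the first and 13.1% and 8.39% with the second. TGFBR2, the type II receptor that TGF-beta ligands need, differed by 1.15 ± 0.09 (SE). It read 13.8 and 14.7 with NTC, 47.5 and 49.9 with PRMT5 shRNA 1, and 55.7 and 51.5 with PRMT5 shRNA 2. All knockdown arrays were higher, and control arrays lay under their medians, so the gene passed the filter only through the knockdown arrays and a higher value there was fixed. The same holds for ACVRL1, which leaves 5 of the 7. TGFBR2 is also among the 6 that rose with PRMT5 shRNA 1. TGFBR2 and ACVRL1 are both among the 4 that rose with PRMT5 shRNA 2, so the counts for single hairpins are partly fixed too. BAMBI, a decoy receptor, rose by 1.19 ± 0.12, from 28.3 and 19.8 to between 55.9 and 91.3 on the knockdown arrays. The coreceptor NEO1 rose by 0.68 ± 0.09. TGFBR3 rose by 0.30 ± 0.09 on average, with 0.53 ± 0.10 for PRMT5 shRNA 1, called, and 0.07 ± 0.10 for PRMT5 shRNA 2, not called. The TGF-beta type I receptor TGFBR1 (-0.11 ± 0.06) and the activin type II receptors ACVR2A (-0.02 ± 0.06) and ACVR2B (-0.05 ± 0.07) were not called in the averaged comparison. BMPR1B, a BMP type I receptor, fell by 0.23 ± 0.05, a call that was lost when either of the NTC arrays was left out and, at -0.03, when its probe sets were averaged. Without NTC shRNA replicate 1 the list had 3 calls and without NTC shRNA replicate 2 it had 4, in place of 8.

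Of 23 SMADs and regulators, all tested, 8 rose, 2 fell and 13 were not called. Their median was 0.012, beside -0.0148 for all tested genes, of which 15.4% were called higher and 17.0% lower. The inhibitory SMADs parted, with SMAD6 higher by 1.50 ± 0.09 (SE) and SMAD7 lower, from 1995 and 1967 with NTC to 516 and 534 with PRMT5 shRNA 1 and 437 and 433 with PRMT5 shRNA 2. SMAD9, a BMP effector, rose by 0.72 ± 0.07. LDLRAD4, an inhibitor of SMAD2 and SMAD3, differed by 0.87 ± 0.13, but it read 11.2 and 5.9 with NTC, under the median, and passed only through the knockdown arrays, so 7 of the 8 remain without it. TRIM33 fell by 0.15 ± 0.05, a call that 8 alternatives lost, leaving out either control array among them, and that turned to 0.05 without _x_at and _s_at probe sets. Of 15 tested TGF-beta and activin response genes (23 on the array), 6 rose, 2 fell and 7 were not called, with a median of 0.18. LDLRAD4 is among the 6, which leaves 5. SMAD7, also on this list, had its largest difference and fell by 2.02 ± 0.05. BHLHE40, a transcription factor, rose by 0.77 ± 0.08. CDKN1A, a cell cycle inhibitor, rose by 0.54 ± 0.08 on average, with 0.02 for PRMT5 shRNA 1 and 1.05 for PRMT5 shRNA 2, and IL11, a cytokine, fell by 0.39 ± 0.11, a call lost without NTC shRNA replicate 1 and without PRMT5 shRNA 1 replicate 1. The matrix protein TGFBI (2.3 to 8.5) and CCN2, connective tissue growth factor (9.1 to 19.0), had too few arrays at the median to be tested. Without _x_at and _s_at probe sets, which also leaves fewer genes to test, this list had 3 calls in place of 8.

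Of 17 tested BMP response genes (18 on the array), 13 rose, 3 fell and 1 was not called, with a median of 0.64. Of the 13, DLX3 and DLX5 passed only through knockdown arrays, which leaves 11. For PRMT5 shRNA 1 alone 13 were called higher and 3 lower (16.2% and 23.1% of all genes), and for PRMT5 shRNA 2 alone 11 and 2 (13.1% and 8.39%). The first count still holds DLX3 and DLX5 and the second DLX3, so both are partly fixed by the filter. The transcription factor ATOH8 (2.23 ± 0.07, SE) and ID1, an inhibitor of helix-loop-helix factors (2.08 ± 0.08), rose most, and SMAD7 (-2.02 ± 0.05), the matrix glycoprotein TNC (-1.59 ± 0.10) and the homeobox gene MSX1 (-0.31 ± 0.11) fell, MSX1 with a call that most alternatives did not keep.

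**Figure D4:**
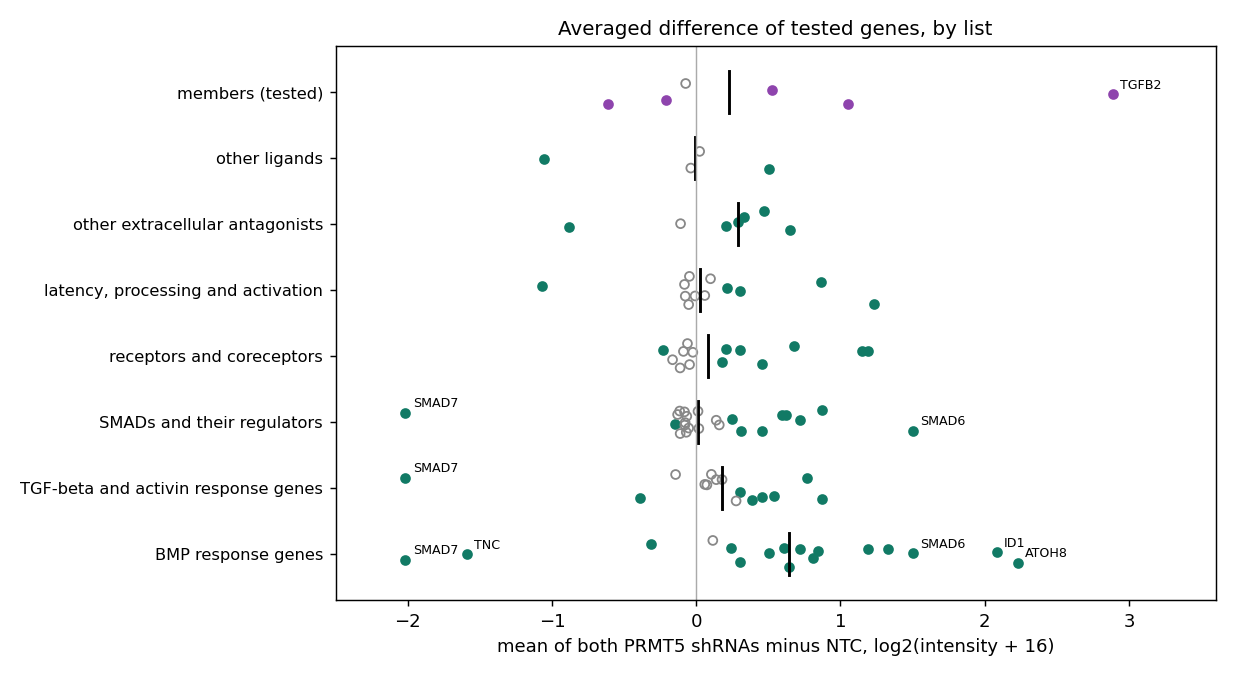
Averaged log2 difference from NTC of each tested gene, by list, with called genes filled, others open, and a bar at each list's median; genes beyond 1.4 in size are named, and vertical scatter only separates the points. BMP response genes lie mostly to the right with a median of 0.64, with SMAD7 and TNC far to the left, while the members spread from -0.61 (BMP2) to 2.89 (TGFB2).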

How the data were processed

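Each array was deposited as linear intensity values per probe set, which the authors computed by MAS5, according to the submitters' processing notes. Its version and detection calls were not analysed here. Trimmed by 2% at each end, every array averaged 150, so arrays were used as scaled. All value columns matched a sample. Symbols came from the platform annotation, with 41091 non-control probe sets having 1 symbol, 1801 several and 11721 none; Entrez IDs matched 41037 of the first to RefSeq genes and changed 0 symbols.

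A probe set passed if it reached its array's median (non-control probe sets) in at least 2 of 6 arrays. The brightest passing probe set stood for its gene, leaving 12413 genes. Values were fitted as log2(intensity + 16) with limma 3.58.1 in R 4.3.3 (a coefficient per group, eBayes with trend, 3 residual degrees of freedom, two-sided, Benjamini-Hochberg), and the fit was tested on simulated data. Probe sets were also fitted singly (28644). The contrasts were each hairpin and their mean against NTC, and hairpin against hairpin. Groups came from sample titles.

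All 10 members are named, and from each list up to 3 called genes with the highest and 3 with the lowest averaged difference, with TGFB2's 5 nearest genes. Others (among them TGFBR1, TGFBR3, ACVR2A, ACVR2B, ITGAV, ITGB8, NOG, TGFBI, CCN2, ACVRL1, DLX3, DLX5 and KRT14) were named after their values were seen. Members and lists were chosen with earlier results of these data known.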

Additional observations from a re-analysis of the deposited data

Results flagged for a closer look

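For 2 of the members the hairpins lay on opposite sides of the control, with the difference between hairpins itself called. INHBA differed by -1.304 on the log2 scale between PRMT5 shRNA 2 and PRMT5 shRNA 1, with 1.18 ± 0.16 (SE) and -0.13 ± 0.16 against NTC; the second value lies within its error of 0. GREM1 differed by 0.792, with -0.60 ± 0.07 and 0.19 ± 0.07 against NTC. Since the members were chosen with these arrays known, both are values to look at again and not tests.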

How the results depend on the processing

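The tested members kept their direction under every alternative run in each contrast where they were called. Calls were lost for INHBA, averaged (0.30 without NTC shRNA replicate 2; 0.53 with both hairpins as 1 group), and for GREM1, averaged (-0.21 and -0.20 without NTC shRNA replicates 1 and 2, -0.19 without PRMT5 shRNA 1 replicate 1, -0.21 with both hairpins as 1 group). BMP2 could not be tested without either control array, since it passes the filter through those 2 arrays. For INHBA with PRMT5 shRNA 2, not called, the sign turned without NTC shRNA replicate 1 (0.10), and for BMP7 with PRMT5 shRNA 2, not called, without NTC shRNA replicate 2 (0.04) or PRMT5 shRNA 2 replicate 2 (0.08). With both hairpins as 1 group, 3 members were called.

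Over all genes, 4016 were called for the averaged contrast (1501 with both hairpins as 1 group), 4879 with PRMT5 shRNA 1, 2661 with PRMT5 shRNA 2 and 3192 between hairpins. Leaving out 1 array at a time gave 2180 to 4254, 3183 to 5297, 1551 to 2450 and 1327 to 2834, respectively. With every passing probe set tested on its own, the counts were of probe sets and came to 8066, 10434, 5158 and 7379. Among list genes, TRIM33 turned to 0.047 without _x_at and _s_at probe sets. With both hairpins as 1 group the counts of calls were 3 for antagonists, 3 for latency genes, 3 for receptors and 5 for TGF-beta response genes, and without _x_at and _s_at probe sets the BMP response list had 10. The cause of these shifts was not tested, but fewer arrays or genes enter several of them.

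The replicate numbers did not pair the samples, since the deviations of same-numbered arrays correlated at -0.09, -0.18 and -0.0045. With the replicate number as a block, 3705, 4559, 2435 and 2829 genes were called in the 4 contrasts, and each member kept its call and direction. Signal near the array median limits what can be said of BMP2, of INHBB and TGFBR2 in control cells, and of 4 members that never reached it.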
